A study of Mus musculus with 48 samples.

Results

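Interferon-stimulated genes are the genes that cells switch on when type I interferon is sensed, and the 37 described here were taken by symbol from what is known of this response. By role they were the sensors Ddx58, Ifih1, Dhx58, Zbp1, Ifi204 and Eif2ak2, the factors Irf7, Irf9 and Stat2, the Isg15 system (Isg15, Usp18 and Herc6), the RNA-binding Ifit1, Ifit2 and Ifit3 and the oligoadenylate synthetase family (Oas1a, Oas2, Oas3, Oasl1 and Oasl2). The set also held the restriction factors Mx1, Rsad2, Cmpk2, Bst2, Ifitm3, Samhd1 and Isg20 and the less defined Parp9, Parp14, Trim30a, Ifi44, Ifi35, Xaf1, Rtp4, Slfn5, Slfn8 and Lgals3bp. They were looked up in each of the deposited count tables. All 37 were found in both tables, so the set held 37 of the 14349 genes that the tables share, out of 20300 genes in the tumor mixture table and 14363 in the CD11b+ table.

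As background, type I interferons bind a receptor made of Ifnar1 and Ifnar2, the kinases Jak1 and Tyk2 pass the signal on, and a complex that holds Stat2 and Irf9 enters the nucleus and binds short GAAA-rich elements in the promoters of its targets. The products detect foreign nucleic acid, block steps of viral replication and feed back on the pathway, and many of the same genes also respond to interferon-gamma. In the brain, microglia and infiltrating macrophages are known to express such genes in injury, infection and tumors.

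The study profiled single cells (droplets, 3′ counting) of GL261 tumors in the striatum of C57BL/6 males aged 6 weeks, after retroviral delivery to the tumor cells of an shRNA against P-selectin (shSELP) or a negative control shRNA (shNC), with puromycin selection. The tumor mixture comprised 2 libraries per group, labelled day 16 after inoculation, for which CD11b+ cells, the remaining CD45+ cells and tumor cells were separated with magnetic beads and recombined in equal amounts. The CD11b+ set comprised 1 library per group, labelled day 21. Brains of 3 mice were pooled within a group, and it is not stated if the 2 libraries of a group had a pool each, so differences between libraries may not reflect differences between mice. Because the mixture was recombined, the number of cells of a type is not its share of the tumor. The knockdown was in the implanted tumor cells only, and every stromal and immune cell came from a host with intact P-selectin.

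In the mixture, the libraries shNC 1, shNC 2, shSELP 1 and shSELP 2 held 2289, 2297, 2293 and 2293 cells, with median depths of 9015, 7579, 5887 and 9388 UMIs (unique molecular identifiers). The CD11b+ libraries held 2862 cells each, with median depths of 4032 UMIs in shNC and 3685 in shSELP. Of the mixture's 9167 barcodes 5 appeared in more than 1 library, and of the 5721 CD11b+ barcodes 3 did. The labels of the CD11b+ set were not uniform. Among its 8 shSELP entries, 7 carried a description of the negative control although their titles, source names and genotypes gave shSELP, and every CD11b+ direction rests on the latter. The labels and the article's methods also differ in the day of collection, for the mixture and for the CD11b+ set, and in the number of cells per group, and the days given here are those of the labels.

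Cells were sorted into classes by fixed marker genes, and a class is called a gate here. In the order shNC 1, shNC 2, shSELP 1 and shSELP 2, which holds for every series of 4 values below, the tumor gate held 274, 175, 53 and 56 cells. The macrophage gate held 943, 777, 538 and 826, the microglia gate 50, 67, 228 and 73, and the T cell gate 439, 445, 405 and 457. Smaller gates were type 2 conventional dendritic cells (cDC2, 29, 36, 26 and 33), mature dendritic cells (36, 73, 48 and 87), NK cells (39, 93, 33 and 55) and endothelial cells (20, 28, 343 and 71). The library shSELP 1 stood apart, with 343 endothelial, 77 mural and 228 microglia cells. Of 8726 mixture cells kept, 1192 (13.7%) matched no gate and 166 matched more than 1.

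Selp, the targeted gene, was scarce. It was represented by 17, 25, 21 and 21 UMIs over all cells of the mixture libraries and by 4 UMIs in each CD11b+ library. In the tumor gate, where the shRNA acts, it was represented by 1, 0, 0 and 0 UMIs, so a knockdown was not detectable at this depth. The endothelial gate held 8, 12, 15 and 7 of these UMIs, at 61.1, 65.0, 9.38 and 15.1 CPM (a gene's UMIs over all UMIs of the gate, times 1e6). The endothelial values were higher in both shNC libraries, which held 20 and 28 endothelial cells.

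The summed level of the 37 members separated the gates into a high and a low set. In CPM, which is not divided by gene length, the mean ± SD over the 4 mixture libraries was 12267 ± 2161 in cDC2, 10354 ± 2236 in the tumor gate, 9854 ± 1857 in endothelial cells, 9232 ± 1169 in macrophages, 7904 ± 1387 in mature dendritic cells and 5682 ± 1110.2 in microglia. Lymphocytes were lower, at 2881 ± 761 in T cells and 2206 ± 533 in NK cells. Between neighbours in this order the library values overlapped, except between microglia and T cells, where each microglia value was above each T cell value. The sums leaned on a few genes, less so in lymphocytes: the 3 most abundant members accounted for 61.3% in the tumor gate, 51.4% in macrophages, 50.6% in microglia, 40.4% in T cells and 33.0% in NK cells.

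Free RNA from lysed cells reaches every droplet. The complement genes C1qa, C1qb and C1qc, which macrophages and microglia express, gave a measure of the part from those cells only. Their summed level in T cells was 0.914% to 1.74% of that in macrophages of the same library, and in NK cells 0.620% to 2.38%. The members stood at 25.1% to 35.3% of the macrophage level in T cells and at 19.3% to 28.4% in NK cells. The lymphocyte values of the members were thus above the share that C1q gave. Tumor and endothelial cells had member sums in the range of macrophages, but C1q summed to only 71.3 and 127 CPM there, against 13676 in macrophages. Free RNA from tumor and endothelial cells was therefore not measured, and its part in the lymphocyte values was not tested. In cDC2 the C1q share was 0.495% to 8.77%, higher in both shSELP libraries.

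Differences between libraries of a group were as large as group differences, except in microglia and endothelial cells. The summed level was 7492, 12428, 9700.0 and 11795 CPM in the tumor gate, 7536, 10214, 9538 and 9638 in macrophages and 5772, 7211, 4726 and 5020.0 in microglia. It was 1893, 3606, 2697 and 3329.6 in T cells and 1452, 2336, 2707 and 2330.2 in NK cells. Within the shNC group, library 2 exceeded library 1 in each of the 8 gates. The sums in the remaining gates were 10466, 13659, 10381 and 14563 in cDC2, 6274, 9552, 7448 and 8342 in mature dendritic cells and 10556, 11712, 7326 and 9823 in endothelial cells. The groups overlapped in 6 of 8 gates, and only in microglia and endothelial cells did each shSELP value lie below each shNC value. With 2 libraries against 2, the smallest p an exact permutation test can give is 0.333, and no other test was made on the sums.

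**Figure D1:**
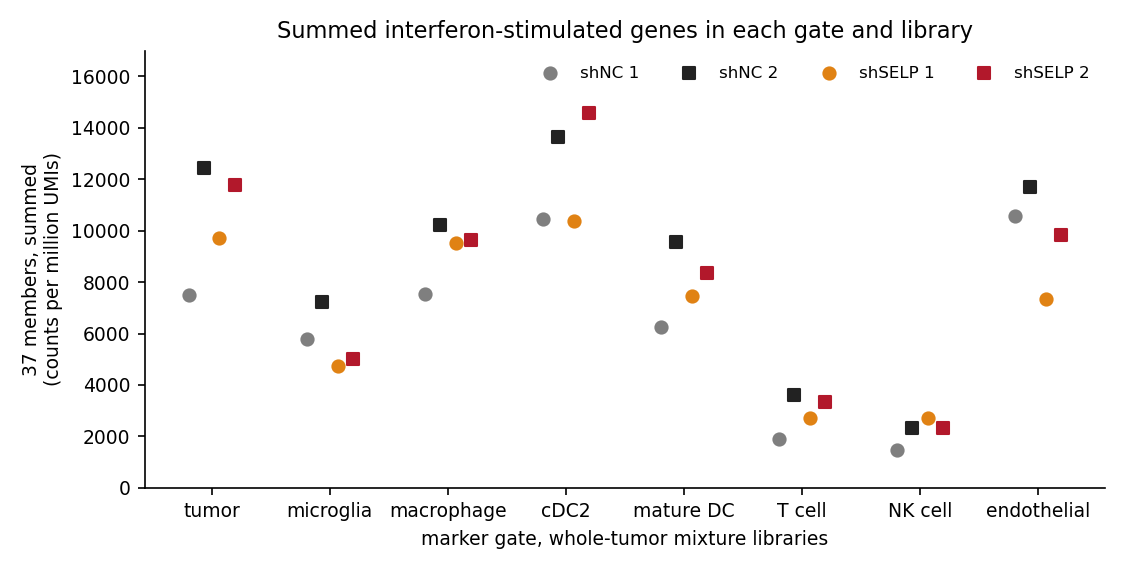
Summed level of the 37 members (vertical axis, CPM) in 8 marker gates (horizontal axis) of the tumor mixture, with 1 point per library: shNC 1 and 2 in grey and black, shSELP 1 and 2 in orange and red. T and NK cells sit below the other gates, shNC 1 lies below shNC 2 in each gate, and the groups are apart only in the microglia and endothelial gates, where both shSELP points are the lower.

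As log2 ratios of the shSELP mean to the shNC mean, the sums gave 0.11 in the tumor gate, 0.11 in macrophages, 0.048 in cDC2, -0.0033 in mature dendritic cells and 0.13 in T cells, each smaller than the pooled SD of the log2 library values (0.22 to 0.49 in these gates). The ratio was -0.41 in microglia (pooled SD 0.17), -0.38 in endothelial cells (0.22) and 0.41 in NK cells (0.36). Over the fits that leave out 1 library, the ratio ranged from -0.21 to 0.52 in the tumor gate, -0.091 to 0.35 in macrophages, -0.22 to 0.27 in cDC2, -0.27 to 0.33 in mature dendritic cells and -0.26 to 0.67 in T cells, so its sign turned in these 5 gates. It ranged from -0.57 to -0.24 in microglia, -0.60 to -0.18 in endothelial cells and 0.11 to 0.79 in NK cells. Without the 3 most abundant members the microglia ratio was -0.17 and the endothelial ratio -0.11.

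Among the sensors of foreign nucleic acid, the highest mean in a gate was that of Zbp1, which binds left-handed nucleic acid, or of the DNA sensor Ifi204. Zbp1 was at 412 ± 105 CPM in the tumor gate, 314 ± 42.9 in macrophages, 292 ± 104 in cDC2 and 250.3 ± 67.3 in mature dendritic cells. It was at 154 ± 43.6 in microglia, 161 ± 32.8 in T cells, 120.0 ± 44.7 in NK cells and 97.0 ± 59.3 in endothelial cells. Ifi204 was mainly a myeloid transcript, with 338 ± 44.4 CPM in macrophages, 315 ± 81.9 in cDC2 and 290.4 ± 43.5 in microglia against 20.2 ± 12.7 in T cells and 31.9 ± 22.6 in endothelial cells. The RNA helicases Ddx58 and Ifih1 and the kinase Eif2ak2, which halts translation on double-stranded RNA, were between 17.4 and 108 CPM in mean over the 8 gates.

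Among the transcription factors, Irf7, which amplifies interferon production, was the most abundant in 7 of 8 gates. Its level was 577 ± 122 CPM in macrophages, 473 ± 234 in cDC2, 398 ± 111 in endothelial cells, 244 ± 57.1 in mature dendritic cells and 199.6 ± 59.0 in microglia. In NK cells it was 134 ± 13.5, in the tumor gate 109 ± 35.4 and in T cells 95.6 ± 28.0. The tumor gate was the exception, where Stat2, the signal transducer specific to type I and III interferon, was at 134 ± 24.1 CPM. Elsewhere Stat2 was at 77.9 ± 5.72 in endothelial cells, 60.8 ± 23.8 in cDC2, 58.5 ± 15.9 in mature dendritic cells, 39.0 ± 7.59 in microglia, 33.8 ± 4.31 in macrophages, 18.9 ± 4.66 in T cells and 13.8 ± 8.22 in NK cells.

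Isg15, a ubiquitin-like modifier that is attached to other proteins, was highest in mature dendritic cells, at 2423 ± 474 CPM, above each library value of every other tested gate. It followed at 979.7 ± 315 in cDC2, 838 ± 286 in the tumor gate, 706 ± 61.9 in macrophages and 548 ± 208 in endothelial cells. It was 334 ± 80.1 in microglia, 223 ± 74.0 in T cells and 137 ± 57.7 in NK cells. Usp18, which removes Isg15 and restrains the receptor, and the ligase Herc6 were highest in mean in the tumor gate, at 107 ± 34.7 and 210.0 ± 29.4 CPM.

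The Ifit genes, whose products bind viral RNA, were summed as a group of 3. Their summed level was 787 ± 214 CPM in endothelial cells, 584 ± 190.1 in the tumor gate and 358 ± 135 in cDC2, against 206 ± 40.6 in macrophages, 183 ± 65.3 in mature dendritic cells, 177 ± 52.2 in microglia, 112 ± 51.7 in T cells and 51.5 ± 20.2 in NK cells. Ifit3 was at 303 ± 113 CPM in the tumor gate and 288 ± 109 in endothelial cells, and at 89.9 ± 24.2 in macrophages and 90.3 ± 31.1 in microglia. The endothelial and tumor library values of the Ifit sum lay above those of macrophages without overlap, while those of the tumor gate and cDC2 overlapped. Ifit2 by itself did not pass against macrophages in the tumor gate (-0.19, adjusted p = 0.487) or in endothelial cells (0.28, adjusted p = 0.183). The oligoadenylate synthetases and their relatives, Oas1a, Oas2, Oas3, Oasl1 and Oasl2, had the opposite order in these gates, with 350.4 ± 58.9 CPM in macrophages and 233 ± 36.8 in endothelial cells. They summed to 452 ± 62.4 in mature dendritic cells, 351 ± 104 in cDC2, 263 ± 66.8 in the tumor gate, 192 ± 27.1 in microglia, 57.5 ± 35.7 in NK cells and 46.2 ± 20.9 in T cells.

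The restriction factors carried the largest part of the counts, through Ifitm3, which blocks the fusion of viral membranes, and Bst2, which tethers budding virus to the cell. Ifitm3 was at 5745 ± 674 CPM in cDC2, 4312 ± 1238 in endothelial cells, 3242 ± 567 in the tumor gate and 2990.2 ± 437 in macrophages. It was at 1459 ± 226 in mature dendritic cells, 1076 ± 399 in microglia, 605 ± 221 in T cells and 309 ± 75.0 in NK cells. Bst2 was highest in the tumor gate, at 2264 ± 495 CPM, where the lowest library exceeded each library of the other gates. It was 1051 ± 117 in macrophages, 848 ± 211 in microglia, 752 ± 147 in cDC2, 705 ± 221 in endothelial cells, 509 ± 151 in mature dendritic cells, 336 ± 88.3 in T cells and 257 ± 43.9 in NK cells. Samhd1, which depletes deoxynucleotides, was a dendritic cell and macrophage transcript, at 838 ± 214, 579 ± 132 and 449 ± 47.2 CPM in cDC2, mature dendritic cells and macrophages, and between 84.8 and 168 in mean in the other 5 gates. Among the remaining members, Lgals3bp, a secreted galectin-binding glycoprotein, was highest in microglia, at 954 ± 246 CPM, and in macrophages, at 609.8 ± 41.6, and was at 162 ± 42.3 in NK cells.

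The gates were then compared with macrophages in edgeR, paired by library over 4 libraries, with adjusted p-values over all genes tested and a threshold of 0.05. All 37 members passed the filter on low counts in each comparison. TMM scaling, which assumes that most genes do not differ, set the median log2 fold change of all genes near 0. The scaling bears on the directions given here, since library totals gave other medians. The median over all genes was 0.026 in the tumor comparison and 0.80 with library totals in place of TMM, an alternative chosen after seeing the data. It moved from -0.029 to 0.60 in the endothelial comparison, from 0.035 to 0.41 in T cells, from -0.13 to 0.16 in NK cells and from 0.0076 to 0.16 in microglia. Fold changes below are TMM-scaled, relative to those medians, unless totals are named.

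Tumor cells expressed a different mixture of members from macrophages. Higher in the tumor gate were 8 of 37 (21.6%), beside 35.8% of the 11371 genes tested, and lower were 22 of 37 (59.5%), beside 35.1%. With library totals 14 were higher, beside 59.8% of all genes, and 11 were lower, beside 19.1%. The members' median was -0.50, or 0.28 with totals. Stat2 was at 117, 168, 117 and 135 CPM in the tumor gate and 29.7, 39.7, 31.8 and 33.9 in macrophages (log2 fold change 1.21, SE 0.13, adjusted p = 2.0e-06, higher in 4 of 4 libraries). The nucleotide kinase Cmpk2 was at 64.0, 78.1, 61.8 and 85.4 CPM and 14.8, 26.2, 13.2 and 16.1 (log2 fold change 1.25, SE 0.16, adjusted p = 7.4e-06, higher in 4 of 4 libraries). These 2 genes were higher in each of the 4 libraries, with no overlap between gates. Fold changes of the other higher members were 0.99 for Herc6, 0.93 for Ifi44, 0.91 for Ifit3, 0.81 for Ifit1, 0.54 for Ddx58 and 0.41 for Ifi35, and all 8 stayed positive with totals. Ddx58 did not pass without shNC 1 (0.42, adjusted p = 0.0513) or in DESeq2 (0.45, adjusted p = 0.0525), nor Ifi35 without shNC 2 (0.38, adjusted p = 0.0781) or shSELP 2 (0.36, adjusted p = 0.0510), without a filter on low counts (0.30, adjusted p = 0.0982) or without the library block (0.42, adjusted p = 0.0515). Of the 22 lower members, 6 turned positive with totals (Zbp1, Isg15, Ifitm3, Slfn8, Rtp4 and Parp9).

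Lower in the tumor gate were genes of several roles. Among sensors and factors, the log2 fold changes were -1.01 for Ifih1, -1.29 for Dhx58, -3.12 for Ifi204 and -3.20 for Irf7. For the oligoadenylate synthetase family they were -1.92 for Oas1a, -1.06 for Oas2, -1.94 for Oas3 and -4.57 for Oasl1. The restriction factors and other members gave -3.69 for Mx1, -1.36 for Rsad2, -3.21 for Samhd1, -1.05 for Parp14, -1.09 for Trim30a, -3.36 for Slfn5 and -1.87 for Lgals3bp. These 15 were the lower members among the 20 with the largest absolute fold change (SE 0.14 to 0.28, largest adjusted p = 0.00427). With totals Ifih1 (-0.23, adjusted p = 0.182), Oas2 (-0.32, adjusted p = 0.312), Parp14 (-0.27, adjusted p = 0.143) and Trim30a (-0.30, adjusted p = 0.0903) did not pass. Irf7 was at 76.4, 142, 80.5 and 137 CPM against 395, 655, 616 and 643 in macrophages, lower in all 4 libraries. For the abundant members the direction depended on the scale. Ifitm3 was at -0.67 with TMM and 0.12 with totals, Isg15 at -0.61 and 0.18, and Zbp1 at -0.43 and 0.36. Bst2 was at 0.30 with TMM (adjusted p = 0.0834) and 1.09 with totals (adjusted p = 8.6e-06), and Zbp1 did not pass without shNC 1 (-0.35, adjusted p = 0.0512) or without the library block (-0.41, adjusted p = 0.0558).

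Endothelial cells resembled the tumor gate in their high Ifit1 and Ifit3 and in their low Mx1 and Oas3. Higher than in macrophages were 7 of 37 (18.9%), beside 29.3% of 10277 genes, and lower were 19 of 37 (51.4%), beside 31.7%. With library totals 16 were higher, beside 48.1%, and 14 lower, beside 18.7%. The members' median was -0.39, or 0.24 with totals. Ifit1 was at 305, 472, 344 and 418 CPM in endothelial cells and 52.9, 66.7, 51.1 and 58.0 in macrophages (log2 fold change 2.11, SE 0.14, adjusted p = 1.3e-09, higher in 4 of 4 libraries). Slfn5, a member of the Schlafen family, was at 229, 482, 464 and 448 CPM and 101, 154, 153 and 132 (log2 fold change 0.94, SE 0.15, adjusted p = 3.2e-05, higher in 4 of 4 libraries). The other higher members were 1.87 for Cmpk2, 1.296 for Ifi44, 0.96 for Ifit3, 0.65 for Irf9 and 0.60 for Stat2, each higher in 4 of 4 libraries and positive with totals as well. Stat2 did not pass without shSELP 1 (0.50, adjusted p = 0.105) or without shSELP 2 (0.47, adjusted p = 0.0936) or without a filter on low counts (0.40, adjusted p = 0.0864), and Irf9 did not without shSELP 2 (0.45, adjusted p = 0.0902).

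Lower in endothelial cells than in macrophages were the sensors Dhx58, Zbp1, Ifi204 and, with TMM only, Ifih1, and several restriction factors. Fold changes were -2.25 for Dhx58, -2.65 for Zbp1, -4.74 for Ifi204, -1.23 for Irf7 and -1.08 for Isg15. The family of Oas and Oasl genes gave -1.48 for Oas1a and -2.43 for Oasl1, and Oas3 was represented by only 0, 0, 3 and 2 UMIs, at 0, 0, 1.88 and 4.31 CPM against 44.1, 80.1, 71.6 and 71.2. Restriction factors and other members gave -3.24 for Mx1, -1.28 for Bst2, -2.15 for Samhd1, -0.85 for Isg20, -1.07 for Trim30a, -3.01 for Slfn8 and -2.83 for Lgals3bp (SE over the 14 fold changes given 0.15 to 0.37, largest adjusted p = 0.00388). On the CPM scale 12 of the 19 lower members were lower in each library, and Ifih1 and Oasl2 turned positive with totals. Isg20 did not pass with totals (-0.22, adjusted p = 0.405) or without shSELP 1 (-0.57, adjusted p = 0.0944). Ifitm3, the most abundant member, was at -0.16 (adjusted p = 0.461), at 0.50 with totals (adjusted p = 0.0297) and at -0.50 without shNC 1 (adjusted p = 0.0228), so no direction can be given for it.

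Microglia had less of most members than macrophages. Lower were 24 of 37 (64.9%), beside 21.8% of 9808 genes, and higher was 1 of 37, Lgals3bp, beside 21.7%. The members' median was -0.60, and with totals 19 were lower, beside 16.6%, and 2 higher, beside 28.1% (median -0.45). Lgals3bp was at 1043, 1262, 749 and 761 CPM in microglia and 557, 627, 599.9 and 655 in macrophages (log2 fold change 0.46, SE 0.16, adjusted p = 0.0256, higher in 4 of 4 libraries). It did not pass without shNC 1 (0.35, adjusted p = 0.155), with the stricter gate (0.20, adjusted p = 0.255), without shNC 2 (0.28, adjusted p = 0.104) or in DESeq2 (0.41, adjusted p = 0.106). Samhd1, with the largest difference, was at 130.4, 129, 122 and 121 CPM and 379.5, 469, 466 and 483 (log2 fold change -2.00, SE 0.14, adjusted p = 1.4e-08, higher in 0 of 4 libraries).

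The other 19 of the 20 largest differences between microglia and macrophages were all negative. Sensors, Irf7 and the Isg15 genes gave -0.64 for Dhx58, -1.24 for Zbp1, -1.72 for Irf7, -1.26 for Isg15 and -0.60 for Usp18. The RNA-binding and oligoadenylate genes gave -1.33 for Ifit1, -1.09 for Oas1a, -1.54 for Oas3, -1.30 for Oasl1 and -1.002 for Oasl2. Restriction factors gave -1.57 for Mx1, -1.06 for Rsad2, -1.17 for Cmpk2, -1.68 for Ifitm3 and -0.91 for Isg20, and the others -0.49 for Parp14, -1.34 for Ifi44, -1.001 for Rtp4 and -0.91 for Slfn5 (SE 0.13 to 0.26, largest adjusted p = 0.0243). Ifitm3 and Irf7 were lower in microglia in each library. Bst2 was at -0.48 (adjusted p = 0.0127), and it did not pass with totals (-0.33, adjusted p = 0.0513) or without shSELP 1 (-0.45) or shSELP 2 (-0.35). Parp14 did not pass with totals (-0.33, adjusted p = 0.129), with the stricter gate (-0.28, adjusted p = 0.155) or without shNC 2 (-0.30) or shSELP 1 (-0.52). Ifit3 (-0.15, adjusted p = 0.497) and Stat2 (0.077, adjusted p = 0.743) did not pass.

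T cells were lower than macrophages in nearly the whole set. Lower were 35 of 37 (94.6%), beside 36.2% of 10618 genes, and higher was 1 of 37, beside 37.3%. With library totals 33 were lower, beside 25.8%, and 2 higher, beside 53.7%. The members' median was -1.82, or -1.44 with totals. The exception was Isg20, an exonuclease that degrades single-stranded RNA, at 142, 194, 199 and 187 CPM in T cells and 36.5, 64.0, 52.8 and 40.9 in macrophages (log2 fold change 1.54, SE 0.085, adjusted p = 3.8e-08, higher in 4 of 4 libraries). T cells and macrophages did not overlap for Isg20. Among the 20 largest differences, all negative, sensors, Irf7 and the Isg15 genes gave -1.95 for Ifih1, -1.91 for Dhx58, -4.44 for Ifi204, -2.98 for Irf7, -2.09 for Isg15 and -2.01 for Usp18. The Ifit and Oas groups gave -2.26 for Ifit2, -2.16 for Oas1a, -3.36 for Oas2, -1.81 for Oas3, -4.91 for Oasl1 and -4.12 for Oasl2. Restriction factors and others gave -3.73 for Rsad2, -2.01 for Cmpk2, -2.06 for Bst2, -2.74 for Ifitm3, -1.82 for Samhd1, -3.27 for Ifi44, -2.89 for Slfn5 and -2.58 for Lgals3bp (SE 0.091 to 0.38, largest adjusted p = 1.4e-05). Ifit3 (-1.35), Zbp1 (-1.35) and Stat2 (-1.22) were lower as well.

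NK cells followed T cells. Lower were 33 of 37 (89.2%), beside 26.9% of 9388 genes, and higher was 1 of 37, beside 18.9%. With library totals 31 were lower, beside 20.2%, and 1 higher, beside 26.5%. DESeq2 called 30 lower and 0 higher, with 33 members at an unadjusted p under 0.05. The members' median was -2.12 beside -0.13 over all genes. The higher member was again Isg20, at 41.0, 79.1, 148 and 116 CPM (log2 fold change 0.63, SE 0.21, adjusted p = 0.00593, higher in 4 of 4 libraries), a call lost without shSELP 1 (0.45, adjusted p = 0.0973), without shSELP 2 (0.39, adjusted p = 0.278), in DESeq2 (adjusted p = 0.176) and without a filter on low counts (0.49, adjusted p = 0.0673). Oas2 had no UMI in the NK gate and was at least 4.13-fold lower than the 12.2 CPM of macrophages, against a floor of 3 counts over the 4 libraries. Of the largest differences, sensors, Irf7 and Isg15 gave -2.45 for Ifih1, -2.03 for Dhx58, -3.12 for Ifi204, -2.45 for Irf7 and -2.72 for Isg15. The Ifit and Oas groups gave -2.13 for Ifit1, -2.21 for Ifit2, -2.12 for Ifit3, -3.34 for Oas1a, -2.29 for Oas3, -2.94 for Oasl1 and -3.68 for Oasl2, and the rest -3.79 for Rsad2, -2.32 for Bst2, -3.58 for Ifitm3, -2.45 for Samhd1, -2.21 for Rtp4, -3.38 for Slfn5 and -2.16 for Lgals3bp (SE 0.15 to 0.74). In this comparison edgeR estimated the spread as common to all genes, so its p-values may be too small. Zbp1 (-1.65) and Stat2 (-1.48) were lower too.

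**Figure D2:**
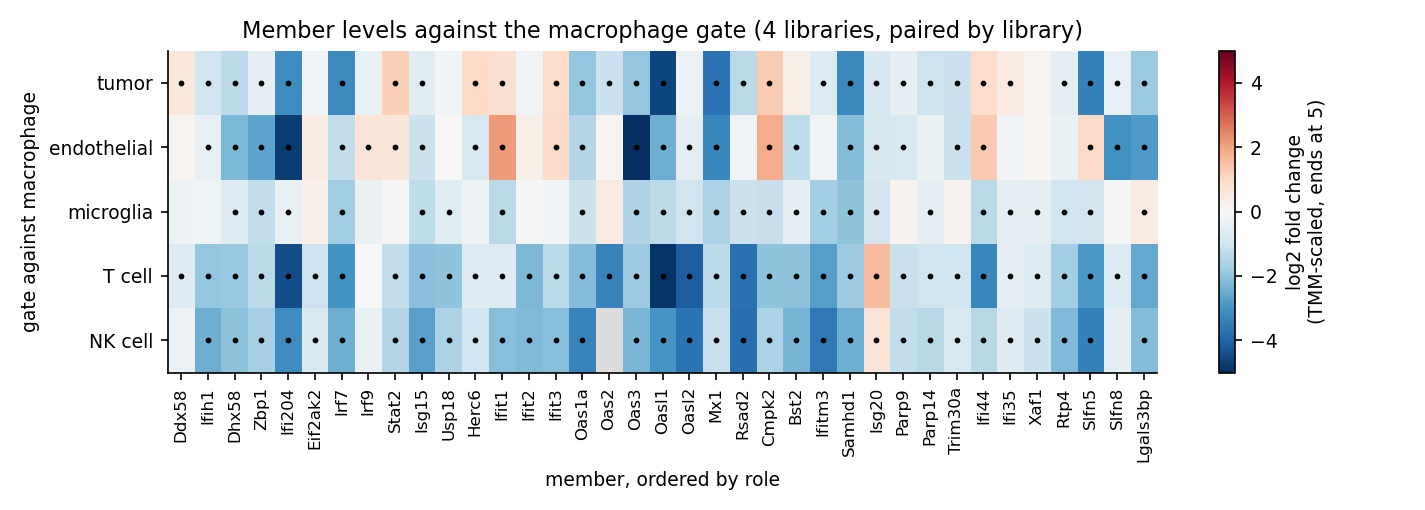
TMM-scaled log2 fold change of each member (horizontal axis, ordered by role) in 5 gates (vertical axis) against the macrophage gate over 4 libraries, red for higher, blue for lower, with a dot where the adjusted p was under 0.05 and grey for Oas2 in NK cells, which had no UMI. Most squares of T and NK cells are blue except Isg20, while Ifit1, Ifit3, Ifi44, Cmpk2 and Stat2 are red in both tumor and endothelial cells; with library totals Ifitm3, Isg15 and Zbp1 turn positive in the tumor gate, and Ifitm3 in endothelial cells.

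Between shSELP and shNC, few members passed in any gate. In edgeR, 0 of 37 tested members passed in the tumor gate, beside 0.52% of 9817 genes, and 0 of 37 in macrophages, beside 0.419% of 10989. In T cells it was 0 of 36, beside 0.0411% of 9732, and in cDC2 0 of 34, beside 0.366% of 3829. In these gates 1 member each was at an unadjusted p under 0.05 in edgeR (all genes 12.4, 13.7, 9.15 and 4.86%), and DESeq2 also called 0. The call was 0 of 32 in mature dendritic cells, beside 0% of 4115 genes, 0 of 15 in NK cells, beside 0% of 2985, and 0 of 31 in endothelial cells, beside 0.177% of 5094, with 3, 2 and 8 members at an unadjusted p under 0.05 (all genes 4.54, 5.39 and 13.7%) and 0 calls in DESeq2. The shares of all genes were themselves small, so a count of 0 among 37 lay near the background. Members below the filter on low counts were Oas1a and Cmpk2 in microglia, Oas1a, Oas2 and Cmpk2 in cDC2, Ddx58, Oas1a, Oas2, Cmpk2 and Slfn8 in mature dendritic cells, Oas2 in T cells, Dhx58, Oas1a, Oas2, Oas3, Mx1 and Slfn8 in endothelial cells and 22 in NK cells. Microglia were the only gate with a call, 1 of 35.

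Members followed in every gate had fold changes of mixed sign. In the order tumor, microglia, macrophage, cDC2, mature dendritic, T, NK and endothelial, the log2 fold changes of Isg15 were 0.27, -0.60, 0.15, 0.24, -0.096, 0.15, 0.55 and -0.49. Those of Bst2 were -0.17, -0.55, 0.081, 0.18, -0.061, 0.30, -0.23 and -0.66, and those of Ifitm3 -0.017, -0.87, 0.28, 0.051, 0.11, 0.13, 0.012 and -0.62. Values were negative in microglia and endothelial cells for all 3 of these abundant members. Irf7 gave -0.11, -0.79, 0.32, -0.34, -0.051, 0.090, 0.15 and -0.11. The values for Zbp1 were 0.23, -0.73, 0.055, -0.012, -0.14, 0.14, 0.55 and -1.37, and for Samhd1 0.30, -0.13, 0.21, 0.24, 0.13, 0.23, 0.47 and 0.056. No gate other than microglia and endothelial cells had a negative value for each of Isg15, Ifitm3 and Zbp1. For Ifit3, which was not tested in NK cells, they were 0.024, 0.29, -0.058, 0.34, -0.20, -0.13 and -0.81. Stat2, also untested in NK cells, gave -0.26, 0.41, -0.019, -0.85, 0.089, -0.0023 and 0.011. Lgals3bp, among the most abundant in microglia and NK cells, was at -0.66 and -0.51 there. Except for Ifitm3 in microglia, adjusted p-values of these genes were 0.0534 or more.

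In the tumor gate, macrophages, mature dendritic cells and T cells the sum was lowest in shNC 1 and highest in shNC 2, that is, the widest difference was within the control group. The extremes were other pairs in the other 4 gates. Of the macrophage members, 32 of 37 were highest in shNC 2, beside 33.3% of all tested genes, and 32 were lowest in shNC 1, beside 26.4%. In T cells 26 of 36 were highest in shNC 2 (all genes 20.8%) and 33 lowest in shNC 1 (all genes 28.3%). In the tumor gate 28 of 37 were lowest in shNC 1 (all genes 30.2%). Many members were thus lower in shNC 1 in these gates, while in microglia 18 of 35 were lowest in shSELP 1 (all genes 16.9%). Leaving out shNC 2 left shNC 1 as the only control, assumed to vary like the other group, and 8 members (22.2%), beside 0.555% of all genes, were then called higher in shSELP in T cells (Isg15 at 0.89, Bst2 at 0.86, Irf7 at 0.74 and Samhd1 at 0.74 among them). In the same way 4 (12.1%), beside 2.33% of all genes, were called higher in the tumor gate (Ifi204, Usp18, Ifit2, and Isg15 at 0.94), 3 (9.09%, all genes 0.712%) in cDC2 (Rsad2, Isg20, and Ifit3 at 1.67) and 1 (all genes 0.495%) in macrophages (Oas3 at 0.72). Without shSELP 2, 1 member was called lower in T cells, beside 1.19% of all genes (Ifit2 at -1.52). The cause of the difference between shNC 1 and shNC 2 was not tested.

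In microglia 1 member passed as lower in shSELP. Ifitm3 was at 1151, 1601, 867 and 685 CPM. Both shSELP libraries were below both shNC libraries, and it passed the test (log2 fold change -0.87, SE 0.18, adjusted p = 0.0236, lower in 2 of 2 shSELP libraries). This made 1 of 35 tested members lower, beside 0.698% of 6588 genes. DESeq2 called Ifitm3 as well (adjusted p = 0.0135), but it did not pass with library totals (-0.82, adjusted p = 0.0662) or with thinned cells (-0.76, adjusted p = 0.110). Irf7 was at 236, 264, 146 and 153 CPM (log2 fold change -0.79, SE 0.19, adjusted p = 0.0534). Lgals3bp was at 1043, 1262, 749 and 761 CPM (log2 fold change -0.66, SE 0.17, adjusted p = 0.0698), and Oas3 at 44.4, 39.4, 17.3 and 18.9 CPM (log2 fold change -1.24, SE 0.32, adjusted p = 0.0714). These 3 did not pass the threshold, although their groups did not overlap. Without a filter on low counts all 3 passed, at adjusted p = 0.0209, 0.0198 and 0.0387 in this order. Irf7 and Oas3 also passed with the replicate number as a block and with the looser gate, and Lgals3bp with thinned cells. With library totals none of them passed. Of the 35 tested members, 12 had both shSELP libraries below both shNC libraries, beside 19.6% of all genes, and 4 had both above (Ifit1, Parp14, Stat2 and Irf9), beside 25.1%. At an unadjusted p under 0.05 there were 8 members (22.9%), all lower, beside 15.2% of all genes in either direction, and the members' median was -0.25 beside 0.0096 over all genes.

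The microglia result rested on single libraries. Without shNC 2, 0 members passed (Ifitm3 at -0.61, adjusted p = 0.149), and without shSELP 2 also 0 (Ifitm3 at -0.72, adjusted p = 0.165). Without shNC 1, 8 (22.9%) passed, all lower (Zbp1, Isg15, Oas3, Ifitm3, Irf7, Bst2, Lgals3bp and Ifit2), beside 3.79% of all genes. The gate held 50, 67, 228 and 73 cells, and its markers differed between libraries. The 8 microglia markers summed to 3198, 2808, 3952 and 3318 CPM in the microglia gate, with Olfml3 the most abundant and none at 0. The 8 macrophage markers summed to 727, 861, 1036 and 633 CPM there, with Lyz2 the most abundant, and were highest in shSELP 1. Ms4a7 was at 16.6, 117, 29.0 and 15.1 CPM, highest in shNC 2, while Ccr2 was at 0 in shNC 1 and shSELP 2 and F10 at 0 in all libraries but shSELP 1. Their part in the result was not tested.

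Macrophages did not show the decrease seen in microglia, and the difference between these responses was tested as an interaction over the 8 sums of both gates. Ifitm3 in macrophages was at 2336, 3166, 3220.0 and 3239 CPM, with both shSELP libraries above both shNC libraries. Irf7 there was at 395, 655, 616 and 643 CPM and Oas3 at 44.1, 80.1, 71.6 and 71.2 CPM, with shNC 1 the lowest in both. The response in microglia minus that in macrophages was -1.17 (SE 0.22, adjusted p = 0.000671) for Ifitm3, -1.12 (SE 0.25, adjusted p = 0.00767) for Irf7 and -1.43 (SE 0.36, adjusted p = 0.0259) for Oas3, on the log2 scale. These 3 of 37 members were lower, beside 0.613% of 10770 genes, and 0 were higher. The members' median was -0.30 beside 0.0028 over all genes. The other followed members gave -0.76 for Isg15, -0.63 for Bst2, -0.80 for Zbp1, -0.79 for Lgals3bp, -0.35 for Samhd1, 0.41 for Ifit3 and 0.49 for Stat2, and did not pass.

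This difference kept its sign for the 3 genes in each leave-out fit but not always its call. Without shNC 2 all 3 passed. Without shNC 1, Irf7 was at -0.91 (adjusted p = 0.0530) and Oas3 at -1.12 (adjusted p = 0.149), while Lgals3bp passed. Without shSELP 1, Irf7 was at -1.15 (adjusted p = 0.167) and Oas3 at -1.38 (adjusted p = 0.384), leaving Ifitm3. Without shSELP 2 no member passed, with Ifitm3 at -0.96 (adjusted p = 0.262), Irf7 at -1.09 (adjusted p = 0.262) and Oas3 at -1.46 (adjusted p = 0.150). DESeq2 gave -1.52 (adjusted p = 0.291) for Oas3, and the stricter gate -1.91, adjusted p = 0.0716. Other members passed with the stricter gate (Rsad2, 1.39, adjusted p = 0.0135) and with the looser gate (Isg15, -0.88, adjusted p = 0.0143). The size of the difference stayed between -1.37 and -0.96 for Ifitm3.

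**Figure D3:**
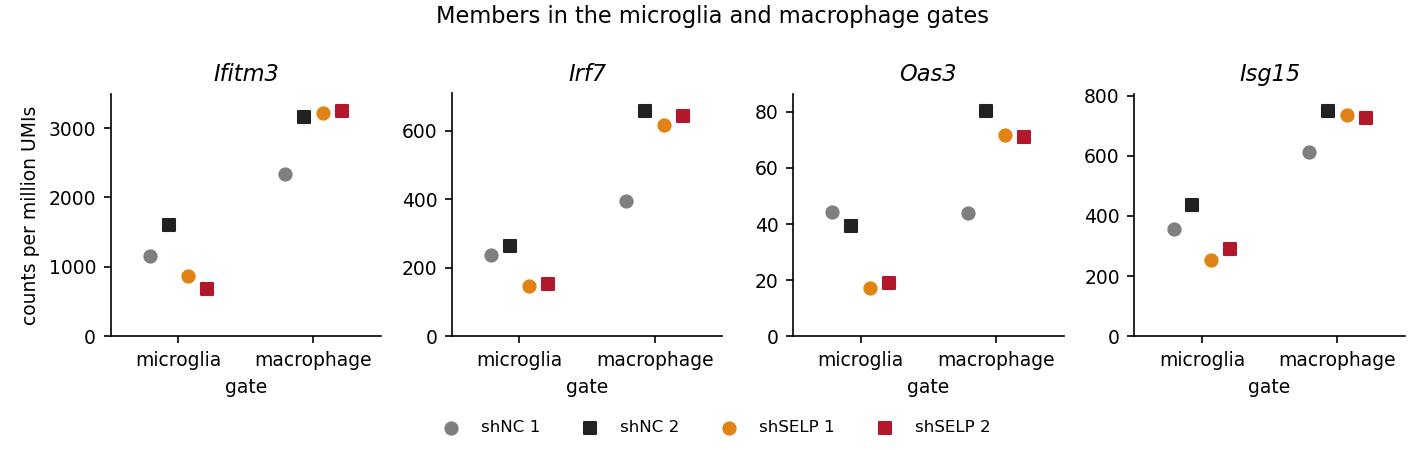
Level of Ifitm3, Irf7, Oas3 and Isg15 (vertical axes, CPM) in the microglia and macrophage gates (horizontal axes) of the tumor mixture, with 1 point per library. In microglia both shSELP points lie below both shNC points in each panel, whereas in macrophages the lowest point is shNC 1.

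Endothelial cells had as many members as microglia at an unadjusted p under 0.05, 8 of 31 (25.8%) beside 13.7% of all genes, and none passed. Ifitm3 was at 5778, 4623, 2803 and 4044 CPM (log2 fold change -0.62, SE 0.21, adjusted p = 0.269), Bst2 at 702, 1008, 485 and 625 (log2 fold change -0.66, SE 0.23, adjusted p = 0.282) and Ifit3 at 282, 444, 206 and 219.8 (log2 fold change -0.81, SE 0.25, adjusted p = 0.239). Both shSELP libraries were below both shNC libraries for all 3. Of 31 tested members, 8 had this order, beside 22.2% of genes, and 2 (6.45%) the opposite, beside 25%. Without shNC 2, 1 member was called lower (Ifitm3 at -0.71, all genes 1.71%) and 1 higher (all genes 2.38%, Slfn5 at 1.05), and without shSELP 2, 2 were lower (all genes 1.58%, Zbp1 at -1.86 and Ifitm3 at -0.87). The shNC libraries held 20 and 28 of these cells, against 343 and 71 in shSELP. In NK cells, 8 of 15 tested members had both shSELP libraries above both shNC libraries, beside 22.5% of genes, and 0 below, beside 13.9%. Isg20 in NK cells was at 41.0, 79.1, 148 and 116 CPM (log2 fold change 0.82, SE 0.36, adjusted p = 0.885), and Parp14, an ADP-ribosyltransferase, at 16.4, 30.8, 90.2 and 75.0 CPM (log2 fold change 1.48, SE 0.49, adjusted p = 0.819). These levels rest on few counts, 5, 36, 18 and 37 UMIs for Isg20 and 2, 14, 11 and 24 for Parp14. Both examples were chosen after their values were seen, and their groups did not overlap.

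The CD11b+ libraries gave a second look at macrophages and microglia, with 1 library per group and therefore no replicate check and no test. Intervals are 95% counting intervals, which cover counting error only. The summed members in the macrophage gate were at 7434 CPM in shNC and 7839.6 CPM in shSELP, a ratio of 1.05 (1.04 to 1.07). In the microglia gate they were at 5909 CPM in shNC and 6267 CPM in shSELP, a ratio of 1.06 (1.01 to 1.12). The sum in macrophages was thus nearly equal between groups, and that in microglia did not show the lower shSELP level of the mixture. For Ifitm3 in the microglia gate the values were 1123 CPM in shNC and 1197 CPM in shSELP, a ratio of 1.07 (0.942 to 1.20). Irf7 was at 208 CPM in shNC and 233 CPM in shSELP, a ratio of 1.12 (0.844 to 1.495). For both genes the interval held 1. Bst2, which did not pass in the mixture microglia (log2 fold change -0.55, SE 0.18, adjusted p = 0.141), was lower here beyond counting error, at 0.782 (0.671 to 0.911).

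Single members of the CD11b+ macrophage gate moved in both directions. The smallest ratios were those of Isg15, at 642 CPM in shNC and 462 CPM in shSELP, a ratio of 0.720 (0.692 to 0.749), and Bst2, at 996 CPM in shNC and 727 CPM in shSELP, a ratio of 0.730 (0.708 to 0.753). These 2 are among the most abundant members. Rtp4, a chaperone of receptors, was at 0.883 (0.809 to 0.962), Isg20 at 0.895 (0.772 to 1.04) and the apoptosis factor Xaf1 at 0.931 (0.841 to 1.03). The largest were Ifi44, at 1.91 (1.63 to 2.24), Trim30a, at 1.82 (1.69 to 1.95), Herc6, at 1.74 (1.52 to 1.99), Usp18, at 1.57 (1.40 to 1.77), and Ddx58, at 1.57 (1.38 to 1.79). Of 37 members, 20 had an interval above 1, beside 28.9% of the 9197 genes with at least 50 UMIs, and 4 below, beside 14.7%. The median ratio was 1.16 over the members and 1.076 over all these genes. Scaled by TMM instead, the summed ratio was 0.988. In the mixture macrophages, Isg15 and Bst2 showed no such decrease, with log2 fold changes of 0.15 and 0.081, and the difference between the sets was not tested. C1q, outside the set, was at a ratio of 0.815 (0.809 to 0.821).

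**Figure D4:**
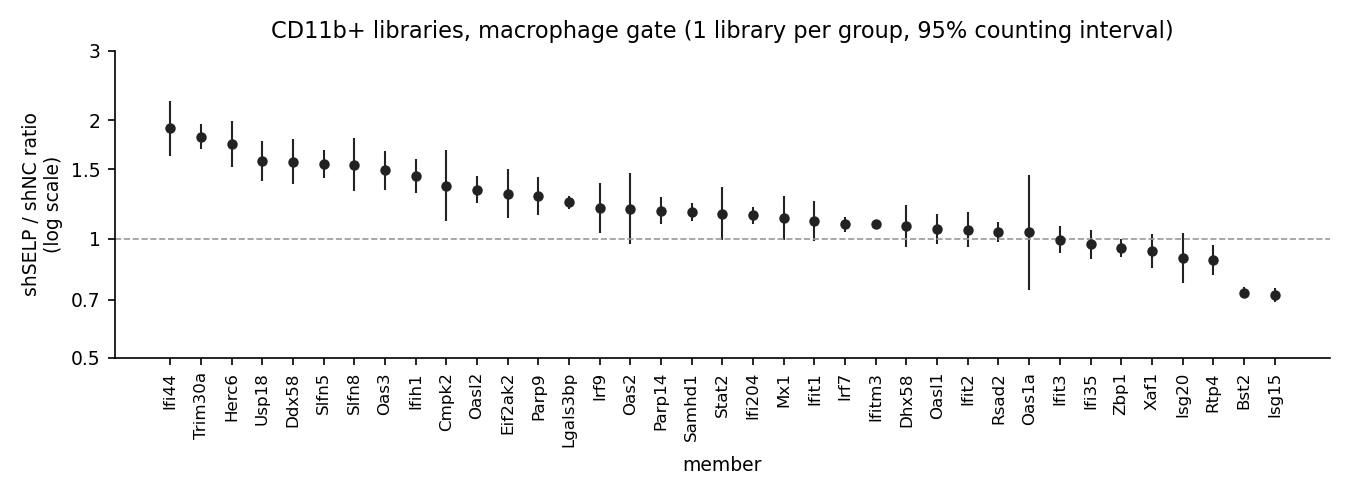
Ratio of the shSELP to the shNC level (vertical axis, log scale) of each member (horizontal axis) in the macrophage gate of the CD11b+ libraries, 1 library per group, with 95% counting intervals and a dashed line at 1. Ifi44, Trim30a and Herc6 lie highest, and Isg15 and Bst2 lowest, at 0.720 and 0.730.

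In the CD11b+ microglia gate, with 94 and 73 cells, 23 members had at least 50 UMIs. The largest ratios were 1.72 (0.954 to 3.14) for Usp18, 1.66 (1.077 to 2.58) for Oasl1, 1.52 (1.12 to 2.07) for Trim30a, 1.505 (0.958 to 2.37) for Slfn5 and 1.43 (1.07 to 1.92) for Rsad2, a radical enzyme that blocks viral RNA synthesis. The smallest were 0.610 (0.3503 to 1.03) for Ifit2, 0.740 (0.494 to 1.10) for Samhd1, 0.782 (0.671 to 0.911) for Bst2, 0.866 (0.663 to 1.13) for Ifi204 and 0.910 (0.551 to 1.48) for Rtp4. Intervals above 1 were found for 4 members, beside 9.19% of 2284 genes, and below 1 for 1, Bst2, beside 9.81%. Bst2 was the lower in shSELP in both CD11b+ gates. In the small CD11b+ dendritic cell gates, the summed members were at 7797 CPM in shNC and 12565 CPM in shSELP, a ratio of 1.61 (1.48 to 1.76), in cDC2, and at 7549 CPM in shNC and 6082 CPM in shSELP, a ratio of 0.806 (0.711 to 0.912), in mature dendritic cells. The latter ratio was 1.081 with the stricter gate and 0.941 with the looser gate, so it has no firm direction.

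Scores per cell were made at equal depth, by thinning each cell to 2000 UMIs, and count how many of the 37 members a cell then showed. Shallower cells were left out, 13, 14, 6 and 15 in the tumor gate, 16, 10, 5 and 12 in macrophages, 3, 4, 6 and 2 in microglia, 31, 18, 13 and 3 in T cells and 8, 8, 3 and 2 in NK cells, so the shares describe the deeper cells. The share of cells with at least 5 members was 76.6, 89.4, 83.0 and 80.5% in the tumor gate, 77.6, 93.2, 91.0 and 92.0% in macrophages and 59.6, 81.0, 49.1 and 57.7% in microglia. It was 27.5, 45.7, 39.0 and 38.5% in T cells and 16.1, 24.7, 36.7 and 26.4% in NK cells. The shares broadly followed the summed levels, with shNC 1 lowest in each of these gates except microglia. The 95% intervals of the T cell shares were 23.2 to 32.1% in shNC 1 and 40.9 to 50.5% in shNC 2, while the shSELP libraries lay between them. In microglia the intervals were 44.3 to 73.6%, 69.1 to 89.8%, 42.3 to 55.9% and 45.4 to 69.4%, in library order, and both shSELP shares were below both shNC shares. Without thinning the microglia shares were 88.0, 97.0, 83.8 and 95.9%, where the groups overlap, and the T cell shares 71.3, 88.1, 77.5 and 93.9%. Unthinned shares were 96.0, 97.1, 98.1 and 89.3% in the tumor gate, 97.8, 99.5, 99.4 and 99.4% in macrophages and 28.2, 51.6, 42.4 and 72.7% in NK cells. In the CD11b+ libraries, where 153 and 257 macrophages were left out, the share in macrophages was 83.9% in shNC and 86.6% in shSELP. In microglia it was 69.2% (58.7 to 78.5%) and 83.1% (72.3 to 91.0%), with intervals that overlap.

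Cells within a gate differed widely. Macrophages showed a median of 7, 9, 8 and 8 members at this depth and a maximum of 28, 28, 25 and 24. T cells showed a median of 3, 4, 4 and 4 and a maximum of 18, 22, 21 and 24, so the highest T cell of shSELP 2 showed as many members as the highest macrophage of that library. The members were also found together in the same cells. When the list was split into 19 members at odd places and 18 at even places, T cells with at least 3 odd-place members held 2.82, 3.73, 2.93 and 3.26 even-place members on average, against 1.22, 1.77, 1.69 and 1.57 in the other T cells of each library. For macrophages these means were 3.69, 4.36, 4.01 and 3.89 against 1.91, 2.72, 2.94 and 2.51. For microglia they were 2.91, 2.83, 3.01 and 3.05 against 1.53, 2.30, 1.73 and 1.74. The microglia with at least 3 odd-place members were 32 of 47, 53 of 63, 104 of 222 and 44 of 71 cells, so some means rest on few cells. Cells that showed members of the first group thus showed more of the second in each library and each of the 3 gates. Doublets and free RNA can add to such counts, and their part was not tested.

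The receptor and the genes that act above the members were read from a list of 22 pathway genes. Ifnar2 was at 182 ± 44.4 CPM in endothelial cells, 153 ± 29.7 in macrophages, 133 ± 22.9 in microglia, 45.0 ± 8.22 in the tumor gate, 33.99 ± 14.6 in NK cells and 31.4 ± 7.45 in T cells. Ifnar1 was at 134 ± 43.8 CPM in endothelial cells, 89.6 ± 14.2 in NK cells, 81.8 ± 4.71 in T cells, 72.4 ± 8.79 in macrophages, 69.8 ± 10.5 in microglia and 18.0 ± 3.46 in the tumor gate. The tumor gate was lowest in Ifnar1, in contrast with its high member levels. Between shSELP and shNC, 0 of the pathway genes tested (11 to 22 per gate) passed in edgeR in any of the 8 gates or in the interaction, with 0 to 4 per gate at an unadjusted p under 0.05. DESeq2 called 1 lower in the tumor gate and 1 higher in macrophages. Of Ifnar1 and Ifnar2, the closest to the threshold was Ifnar2 in macrophages, at 118, 139, 178 and 178 CPM (log2 fold change 0.52, SE 0.10, adjusted p = 0.0956). Both shSELP libraries were above both shNC libraries there. The interferon-gamma receptor gene Ifngr1 was closer in microglia (log2 fold change 0.81, SE 0.23, adjusted p = 0.0858). Closest of the pathway genes was Socs3 in the tumor gate, at 373, 273, 144 and 166 CPM (log2 fold change -1.15, SE 0.23, adjusted p = 0.0732). Over the gates, fold changes of Ifnar1 lay between -0.47 and 0.35.

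Between gates the pathway genes differed widely. Against macrophages, the tumor gate had 2 higher and 15 lower of 19 (all genes 35.8% higher and 35.1% lower), or 4 higher and 11 lower with totals (all genes 59.8% higher and 19.1% lower). Ifnar1 was at -2.72 and Ifnar2 at -2.52, and with library totals at -1.97 and -1.75. Mavs turned positive with totals, at 0.11, and Tbk1 and Mb21d1 no longer passed. Other calls were -6.88 for Tlr7, -2.86 for Ifngr2, -2.38 for Ifngr1, -2.38 for Myd88, -2.15 for Irf8, -2.13 for Tmem173, -1.84 for Tyk2, -1.76 for Jak1, -1.63 for Socs3, -1.08 for Tbk1, -1.07 for Mb21d1, -0.65 for Mavs, 1.51 for Socs1 and 1.94 for Irf1. Endothelial cells had 2 higher and 13 lower of 19 (all genes 29.3% higher and 31.7% lower), with Ifnar2 at -0.41 (0.23 with totals) and Ifnar1, not past the threshold, at 0.35. There were 3 higher and 7 lower with totals (all genes 48.1% higher and 18.7% lower), and Ifnar1 passed, at 0.996 (adjusted p = 0.000178). Calls with TMM were -6.73 for Tlr7, -3.94 for Irf8, -3.34 for Tmem173, -2.43 for Ifngr2, -1.76 for Mb21d1, -1.69 for Ifngr1, -1.36 for Myd88, -1.21 for Tyk2, -0.91 for Tbk1, -0.64 for Jak1, -0.52 for Socs3, 0.90 for Irf3 and 1.07 for Irf1. With totals Jak1 was at 0.00071 and Socs3 at 0.14 there, and Tbk1, Tyk2 and Mb21d1 did not pass. Receptor transcripts were thus lower than in macrophages in tumor cells under each scaling, and in endothelial cells the direction of Ifnar2 and the call of Ifnar1 depended on the scaling. Microglia had 7 higher and 4 lower of 20 (all genes 21.7% higher and 21.8% lower), or 9 higher and 3 lower with totals (all genes 28.1% higher and 16.6% lower), with Ifnar2 at -0.35 (with totals -0.19, adjusted p = 0.218), and -1.06 for Socs1, -0.88 for Myd88, 0.47 for Tmem173, 0.51 for Irf3, 0.51 for Jak1, 0.56 for Ifngr1, 1.36 for Mb21d1, 1.56 for Tlr3 and 1.66 for Tlr7. T cells had 5 higher and 12 lower of 20 (all genes 37.3% higher and 36.2% lower), or 6 higher and 10 lower with totals (all genes 53.7% higher and 25.8% lower), with Ifnar2 at -2.67, and -4.45 for Ifngr2, -3.94 for Tlr7, -3.83 for Tlr3, -3.58 for Socs3, -1.48 for Tmem173, -1.20 for Myd88, -1.05 for Mavs, -0.83 for Tbk1, -0.38 for Irf1, -0.22 for Irf8, 0.40 for Irf3, 0.58 for Socs1, 0.74 for Jak1, 2.00 for Ifngr1 and 8.29 for Ifng, of which Irf8 turned positive with totals (0.16) and Irf1 did not pass (-0.0018, adjusted p = 0.984). NK cells had 7 higher and 9 lower of 20 (all genes 18.9% higher and 26.9% lower), or 7 higher and 9 lower with totals (all genes 26.5% higher and 20.2% lower), with Ifnar2 at -2.42, and -4.71 for Ifngr2, -3.56 for Tlr3, -3.55 for Tlr7, -1.33 for Tbk1, -1.28 for Socs3, -1.15 for Myd88, -1.01 for Tmem173, 0.73 for Socs1, 1.002 for Mb21d1, 1.26 for Tyk2, 2.01 for Jak1, 2.57 for Irf8, 3.16 for Ifngr1 and 7.37 for Ifng. Ifnar1 did not pass in microglia (-0.18), T cells (-0.19) or NK cells (0.049).

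The ligands themselves were rare. Ifnb1, which encodes interferon-beta, was represented by 149, 37, 53 and 36 UMIs in 17, 14, 7 and 10 cells of the mixture libraries. These cells were most often macrophages, except in shSELP 2, where cells that matched no gate were the most frequent. In the CD11b+ libraries Ifnb1 was represented by 27 UMIs in 12 cells of shNC and 2 UMIs in 2 cells of shSELP. A few cells carried these counts, so no direction is given. No numbered Ifna gene was listed in either table, and Ifnab had 0 UMIs. Ifng, the interferon-gamma gene, was abundant by comparison, with 2445, 2760, 1745 and 3881 UMIs, most often in T cells.

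A list of 14 GTPases that interferon-gamma induces (Gbp, Irg and Tgtp genes) was summed beside the members. It was highest in the tumor gate, at 3704, 6539, 6293 and 6434 CPM, against 1258, 1609.5, 1481 and 1625 in macrophages and 2122 ± 548 in endothelial cells. The tumor values exceeded those of every other tested gate in each library, a contrast that the member sum did not show. Against macrophages, 10 of 14 were higher and 0 lower in the tumor gate (edgeR, 10 at an unadjusted p under 0.05, and 0 lower in DESeq2, all genes 35.8% higher and 35.1% lower), and 4 higher and 4 lower in endothelial cells (all genes 29.3% higher and 31.7% lower). With library totals these counts were 14 higher and 0 lower in the tumor gate (all genes 59.8% higher and 19.1% lower), and 8 higher and 1 lower in endothelial cells (all genes 48.1% higher and 18.7% lower). In microglia 10 of 13 tested were lower (all genes 21.8%), and in T cells and NK cells 11 of 13 each (all genes 36.2 and 26.9%, with totals 8, 9 and 10). Between shSELP and shNC, 0 passed in any gate in edgeR, with 0 to 2 per gate at an unadjusted p under 0.05 and 0 calls in DESeq2. In the CD11b+ macrophages the sum was at 767 CPM in shNC and 1323 CPM in shSELP, a ratio of 1.73 (1.68 to 1.78), a larger ratio than that of the members.

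Several members lie side by side in the genome. By the GENCODE annotation of the same assembly (GRCm38), Ifit1, Ifit2 and Ifit3 lie within chr19:34550694-34650009, and Rsad2 and Cmpk2 within chr12:26442746-26479837. Chromosome 5 held 5 members (the Oas and Oasl genes) and chromosome 11 held 6. Neighbours did not share 1 pattern: against macrophages, Cmpk2 was at 1.25 and Rsad2 at -1.36 in the tumor gate. Some members have near copies whose 3′ reads may be hard to assign, and the values of these members are uncertain to that degree. Beside 10450 UMIs of Ifit3 the mixture table listed 1352 of Ifit3b, and beside 1034 of Oas1a it listed 312 of Oas1g. Trim30a, with 12908 UMIs, stood beside Trim30d with 3347, and Ifi204, with 19741, beside Ifi207 with 10216. Ifitm3, with 218254 UMIs, was listed apart from Ifitm2 (50108) and Ifitm1 (39912).

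The promoters show what many members share. In RefSeq promoter windows of GRCm38.p6, from 250 bases before to 50 bases after the start, 28 members had an entry. The core searched was GAAA, any 2 bases, GAAA, on both strands, with overlapping copies counted. It was found in 15 of the 28 (53.6%), beside 1079 of 27025 genes with a window (3.99%), and 2 or more copies were found in 6 of 28, beside 72 of 27025. Of the GTPases 9 of 10 with a window held it, and of the pathway genes 2 of 18. Members without an entry were Parp14, Rtp4, Dhx58, Usp18, Mx1, Parp9, Zbp1, Ifi204 and Oas2. The 13 members with a window but no core were Cmpk2, Herc6, Ifi35, Ifi44, Ifit2, Irf7, Irf9, Isg20, Lgals3bp, Oasl1, Oasl2, Samhd1 and Xaf1. A match is a description of letters and shows no binding, and its absence says only that these letters were not in the window.

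Windows of 6 members are shown, for the abundant Isg15, Bst2 and Ifitm3, for Ifit1 and Ifit3, which were high in tumor and endothelial cells, and for Oas3, which was among the genes with a different response in microglia. All 6 hold the core, but the core did not mark these patterns. Cmpk2 and Ifi44, also high in tumor and endothelial cells, and Irf7, also with a different response in microglia, had windows without it. The Isg15 window is chr4:156200769-156201068 on the minus strand, with 3 copies. The Ifit1 window is chr19:34640639-34640938 on the plus strand, with 2 copies. The Ifit3 window is chr19:34583279-34583578 on the plus strand, with 2 copies. The Bst2 window is chr8:71537423-71537722 on the minus strand, with 2 copies. The Ifitm3 window is chr7:141010695-141010994 on the minus strand, with 2 copies. The Oas3 window is chr5:120777610-120777909 on the minus strand, with 1 copy. Each is written 5′ to 3′ along the gene, and capitals mark the core, in Ifit1 and Ifit3 as its complement (TTTC, any 2 bases, TTTC). In Ifitm3 the first copy begins 2 bases after the start, and in the other 5 before it.
Isg15: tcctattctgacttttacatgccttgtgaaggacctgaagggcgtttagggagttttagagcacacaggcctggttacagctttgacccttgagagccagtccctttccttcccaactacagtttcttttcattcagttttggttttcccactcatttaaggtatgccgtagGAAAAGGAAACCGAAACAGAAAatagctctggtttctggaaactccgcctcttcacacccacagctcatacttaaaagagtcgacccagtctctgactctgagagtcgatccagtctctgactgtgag
Ifit1: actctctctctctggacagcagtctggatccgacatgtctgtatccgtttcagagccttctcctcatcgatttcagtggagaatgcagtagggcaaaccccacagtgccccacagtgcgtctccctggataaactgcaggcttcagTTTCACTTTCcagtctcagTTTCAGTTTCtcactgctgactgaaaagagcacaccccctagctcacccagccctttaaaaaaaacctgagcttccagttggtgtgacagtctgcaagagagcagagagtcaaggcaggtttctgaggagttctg
Ifit3: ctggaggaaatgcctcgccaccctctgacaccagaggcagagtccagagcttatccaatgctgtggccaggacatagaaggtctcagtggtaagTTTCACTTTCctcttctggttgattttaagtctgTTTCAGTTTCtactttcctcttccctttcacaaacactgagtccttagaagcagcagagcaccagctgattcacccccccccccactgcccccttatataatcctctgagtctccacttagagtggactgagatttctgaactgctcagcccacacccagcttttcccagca
Bst2: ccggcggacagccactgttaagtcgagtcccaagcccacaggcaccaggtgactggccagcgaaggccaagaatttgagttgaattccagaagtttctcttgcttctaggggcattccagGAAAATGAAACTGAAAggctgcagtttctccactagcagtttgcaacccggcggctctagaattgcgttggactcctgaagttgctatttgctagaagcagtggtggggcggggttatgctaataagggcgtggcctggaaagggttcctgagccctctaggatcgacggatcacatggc
Ifitm3: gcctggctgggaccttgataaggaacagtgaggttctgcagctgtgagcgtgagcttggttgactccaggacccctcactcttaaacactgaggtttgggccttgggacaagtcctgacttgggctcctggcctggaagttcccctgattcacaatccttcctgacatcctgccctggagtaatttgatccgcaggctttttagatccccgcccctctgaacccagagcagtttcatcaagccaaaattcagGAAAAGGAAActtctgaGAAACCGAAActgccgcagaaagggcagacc
Oas3: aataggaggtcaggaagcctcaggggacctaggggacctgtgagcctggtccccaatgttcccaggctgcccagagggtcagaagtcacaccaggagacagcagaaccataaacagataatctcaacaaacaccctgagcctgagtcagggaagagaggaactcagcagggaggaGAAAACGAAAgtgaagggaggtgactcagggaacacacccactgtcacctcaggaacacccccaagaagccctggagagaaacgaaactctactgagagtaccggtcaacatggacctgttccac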

How the data were processed

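Single cells were measured in 4 libraries of the tumor mixture and 2 of CD11b+ cells, each in 8 deposited entries. The authors aligned reads to mm10, made UMI counts per gene and cell with Cell Ranger 1.3 and deposited them as tables, and the methods state a filter on genes per cell and a random draw of equal cell numbers per group. The tables do not match these statements in full, since they hold 58 to 131 cells under 500 genes per library and 4586 (mixture) and 2862 (CD11b+) cells per group, which are not the numbers stated. Depth was 22945972, 22626413, 17398121 and 25589350 UMIs in the mixture libraries and 12628177 and 11445676 in the CD11b+ libraries, which leaves rare genes such as Selp with few counts.

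Cells under 500 genes or over 10% mitochondrial UMIs were left out. A cell was gated to the class with the highest marker score, where that scaled score was at least 0.35 and the next class reached at most 0.75 of it. UMIs of a gate were summed per library and fitted in edgeR 4.0.16 (R 4.3.3), with filterByExpr, TMM scaling and quasi-likelihood tests, with library as a block between gates, and Benjamini-Hochberg adjustment. The procedure was tested on simulated data, and no outcome of that is given here. CD11b+ levels, with 1 library per group, were compared as ratios with exact Poisson intervals, and shares of cells carry exact binomial intervals.

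Genes were named by rule: members past the threshold, up to the 20 largest by absolute fold change, then Isg15, Ifit3, Irf7, Ifitm3, Bst2, Stat2, Zbp1 and Samhd1 everywhere, and the 3 most abundant of each gate. In the CD11b+ gates, the 5 largest and 5 smallest ratios among members of at least 50 UMIs were named. Lists read beside the members were 22 pathway genes, 14 GTPases, C1q and the gate markers. The members and lists were chosen with earlier results of these data known, and some genes of these lists are not analysed here.

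Alternatives were DESeq2 1.42.0, fits without the filter on low counts or without each library in turn, stricter and looser gates, Scrublet calls left out (scanpy 1.11.5), the replicate number as a block, no library block, cells thinned to 2000 or 1000 UMIs, sums without the 3 most abundant members, TMM-scaled sums and 8 members in place of 5. Library totals in place of TMM were added after seeing the data. Scrublet marked 0.871% of mixture cells and 0.0181% of CD11b+ cells, and at that share it has not worked in the CD11b+ set. Promoters came from RefSeq, coordinates from GENCODE. Other tools were Python 3.11.15, numpy 2.4.6, scipy 1.17.1, pandas 2.3.3 and matplotlib 3.10.9.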

Additional observations from a re-analysis of the deposited data

Results flagged for a closer look

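In the microglia gate, 3 members differed from the macrophage gate in their response, which puts them here as a difference between groups that is not the same in both gates. The response in microglia minus that in macrophages was -1.43 for Oas3, -1.17 for Ifitm3 and -1.12 for Irf7 (log2, adjusted p = 0.0259, 0.000671 and 0.00767). In microglia each of the 3 was lower in both shSELP libraries than in both shNC libraries, but only Ifitm3 passed within that gate in the main fit. Irf7 and Oas3 passed there without a filter on low counts, with the looser gate and with the replicate number as a block. With library totals none of the 3 passed within microglia. No member passed the test of the difference without shSELP 2, and 1 did without shSELP 1. The gate held 50, 67, 228 and 73 cells, and its 8 macrophage markers summed to 727, 861, 1036 and 633 CPM. Neither cell composition nor free RNA was tested as a source, and they cannot be told apart from a change within microglia. In the CD11b+ set, with 1 library per group, the ratio of shSELP to shNC for Ifitm3 was 1.07 (0.942 to 1.20) in microglia and 1.09 (1.07 to 1.11) in macrophages, with intervals that overlap.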

How the results depend on the processing

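Most results kept their side of the threshold. Of the values under an alternative for genes named by the rule, 1985 kept their side of the threshold (95 of them changed sign while past it in neither fit), 26 newly passed the threshold, 35 no longer passed and 4 changed sign with a call in at least 1 fit, and of the counts and sums, 273 stayed and 52 moved. With totals in place of TMM, Zbp1 (0.36), Isg15 (0.18) and Ifitm3 (0.12) turned positive in the tumor gate against macrophages, where only Zbp1 still passed, and Ifitm3 (0.50) in endothelial cells, where it did not pass with TMM, since the scaling moves all genes of a gate together. Outside the rule, Slfn8 (0.36), Rtp4 (0.28), Parp9 (0.28), Oasl2 (0.49), Usp18 (0.66) and Eif2ak2 (0.65) also turned positive in the tumor gate and Ifih1 (0.24), Oasl2 (0.18), Usp18 (0.60), Ifi35 (0.50) and Rsad2 (0.42) in endothelial cells, each with a call under 1 scaling, and Ifit1 (0.99) between groups in T cells without shNC 2. Totals also gave 14 higher and 11 lower members in the tumor gate, 16 higher in endothelial cells, 2 higher in microglia, 2 higher in T cells and 0 between groups in microglia.

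Leaving out each library, with the lone library of a group assumed to vary like the other, members called between groups ranged from 0 to 4 in the tumor gate, 0 to 8 in microglia, 0 to 1 in macrophages, 0 to 3 in cDC2, 0 to 8 in T cells and 0 to 2 in endothelial cells. The interaction count ranged from 0 to 3, and members higher than in macrophages from 0 to 1 in microglia and 0 to 1 in NK cells. Group ratios of the sums ranged from -0.21 to 0.52 in the tumor gate, -0.57 to -0.24 in microglia, -0.091 to 0.35 in macrophages, -0.22 to 0.27 in cDC2, -0.27 to 0.33 in mature dendritic cells, -0.26 to 0.67 in T cells, 0.11 to 0.79 in NK cells and -0.60 to -0.18 in endothelial cells.

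Between groups in microglia, 4 members were called lower without a filter (all genes 0.742%), 7 with the looser gate (1.34%) and 3 with the replicate number as a block (1.32%). In endothelial cells 2 were lower without a filter (0.825%). Against macrophages, microglia had 0 higher in DESeq2 and with the stricter gate and 2 with the looser gate, and NK cells 0 higher in DESeq2 and without a filter. Without the 3 most abundant members the group ratio of the sum was -0.17 in microglia and -0.11 in endothelial cells, and the CD11b+ ratio 1.10 in macrophages and 2.05 in cDC2. With the stricter gate the CD11b+ ratio was 1.09 in macrophages, 1.35 in microglia and 1.081 in mature dendritic cells, where the looser gate gave 0.941. Thinned to 2000 UMIs it was 0.993 in macrophages and 1.18 in microglia, and TMM gave 0.988 in macrophages. The per-cell score, as a log2 group ratio, was 0.19 in the tumor gate and -0.76 in microglia at 1000 UMIs, and -0.37 in cDC2 with at least 8 members. The cause was not tested for these changes.

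The labels do not pair libraries across groups. Correlations between libraries of the same number, -0.074 to 0.099 over the gates, gave no hint of pairing. The block moved no other count of calls by over 1.5 times. The stricter gate gave no group value for the tumor gate, cDC2 and endothelial cells, and thinning gave none for endothelial cells. As limits, 2 libraries per group, 1 in the CD11b+ set, and small gates leave low power, and pooled brains leave no measure of variation between mice. Free RNA, depth and the cells a gate admits bear on every level.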
